A study of Mus musculus with 23 samples.

Results

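Trem2 encodes a receptor on the surface of microglia that binds lipids, lipoproteins and debris, and Tyrobp encodes DAP12, the adaptor through which that receptor signals. Their probe sets were found by gene symbol. Each symbol had 1 probe set, TC1700000937.mm.2 for Trem2 and TC0700000561.mm.2 for Tyrobp, so that the 2 genes are 2 of 22203 probe sets on the array. Microglia of the cortex and hippocampus, sorted on CD45 and CD11b, were profiled in 23 mouse samples that fall into 6 groups. Gated APP cells came from 12 months old mice of the APPswlnd line (4 samples), and gated TAU cells from 9 months old mice of the P301S (PS19) line (4 samples). Both were kept as Clec7a positive cells, which the labels call active. WT cells came from C57BL6 mice at 12 months (4 samples). The same lines were sampled at 3 months, the age labelled pre-pathology for the transgenic lines, as young APP (3 samples), young TAU (4 samples) and young WT (4 samples).

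APPswlnd mice carry a mutant human amyloid precursor protein transgene and PS19 mice a mutant human tau transgene. The labels do not name the promoters that drive them. No Clec7a gate is named for the WT and young samples. Transgene, pathology and gate therefore differ together between the gated groups and WT at 12 months and cannot be told apart, and for TAU the age differs as well. The titles of the gated TAU samples give 12 months where their age fields give 9, and 9 was used. Replicates are labelled biological, but whether each came from its own animal is not said. All p-values therefore refer to the scatter among these samples. Sex is not given.

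A TREM2 molecule has only a short tail inside the cell and passes its signal through DAP12, whose tyrosine activation motif recruits the kinase SYK once phosphorylated. In mouse models with amyloid deposits, TREM2 and DAP12 are needed for microglia to gather around plaques and to take on the full disease-associated microglia (DAM) profile, in which phagocytic, lysosomal and lipid genes are raised and homeostatic genes lowered. Loss of either protein in humans causes Nasu-Hakola disease.

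The promoter windows of Trem2, of its family member Trem1 and of Hcst, the gene of the DAP10 adaptor, are shown. These 3 genes had their highest mean in the gated APP cells, a trait that Tyrobp and other genes named below share. The Tyrobp window is not shown because the promoter reference used held no entry for it. Each line is the 250 bases before the annotated start, 5′ to 3′ on the gene's own strand, from RefSeq on GRCm38.p6. Capitals mark GAGGAA or its reverse complement TTCCTC, 1 form of the sites bound by ETS factors such as PU.1, the master regulator of myeloid cells. The windows lie at chr17:48346151-48346400 (plus strand) for Trem2, chr17:48232489-48232738 (plus strand) for Trem1 and chr7:30419855-30420104 (minus strand) for Hcst.
Trem2: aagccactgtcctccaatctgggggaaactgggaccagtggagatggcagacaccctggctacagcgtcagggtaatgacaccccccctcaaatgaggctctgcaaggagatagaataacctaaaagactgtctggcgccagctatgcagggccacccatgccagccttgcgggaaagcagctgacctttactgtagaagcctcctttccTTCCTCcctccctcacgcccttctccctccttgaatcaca
Trem1: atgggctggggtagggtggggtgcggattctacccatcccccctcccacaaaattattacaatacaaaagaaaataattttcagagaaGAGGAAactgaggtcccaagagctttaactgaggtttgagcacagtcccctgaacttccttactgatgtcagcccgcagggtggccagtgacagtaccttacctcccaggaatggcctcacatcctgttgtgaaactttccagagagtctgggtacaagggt
Hcst: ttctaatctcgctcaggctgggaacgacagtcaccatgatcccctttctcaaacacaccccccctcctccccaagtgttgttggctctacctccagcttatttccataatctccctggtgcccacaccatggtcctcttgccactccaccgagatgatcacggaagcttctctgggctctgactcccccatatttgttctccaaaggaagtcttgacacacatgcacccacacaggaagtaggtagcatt
The Trem2 window held 1 match on the opposite strand, which begins 40 bases before the start, and the Trem1 window held 1 on the gene's strand, which begins 162 bases before it. The Hcst window held 0. Other forms of ETS site were not searched for, so the windows are not compared in their ETS sites. Of 32851 promoter windows of this length, 7639 (23.3%) held the motif on either strand, and a match in a window is a description of its letters.

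The deposited values are log2 signals between 3.12 and 19.85. As a level of background, the 95th percentile of 1447 chemosensory receptor probe sets was taken in each group (7.73 to 8.12). All 9 measured homeostatic microglia markers lay above it in every group, and 0 of 5 monocyte markers in any. Above it were also 3 of 5 neuron markers and 1 of 4 oligodendrocyte markers in every group, 1 or 2 of 5 astrocyte markers and 0 or 1 of 4 endothelial and of 3 B cell markers. WT 12 months replicates 2 and 4 stood apart from the other 21 samples. They scored 86.2 and 73 on the second principal component (20.6% of the variance), where the others ranged from -51.6 to 24.8. The averaged signal of 3 Y-linked genes (Eif2s3y, Kdm5d and Uty) ranged from 4.16 to 7.13 in gated APP, 4.5 to 6.78 in gated TAU, 6.06 to 7.31 in WT at 12 months, 4.14 to 4.62 in young APP, 4 to 6.88 in young TAU and 6.98 to 7.46 in young WT. The number of arrays limits the precision, with a median standard error (SE) of 0.226 for a log2 fold change.

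Trem2 was higher in gated microglia of both lines than in WT microglia at 12 months, and its rise was called in each. In gated APP cells the Trem2 log2 signal was 16.16, 16.33, 16.69 and 16.24, and in gated TAU cells 15.77, 15.60, 15.58 and 15.60. In WT at 12 months it was 14.64, 14.48, 15.18 and 14.64. All samples of each gated group lay above all WT samples, as held for 6.72% of all probe sets in gated APP and 6.38% in gated TAU. The mean was 16.36 ± 0.23 in gated APP, 15.64 ± 0.09 in gated TAU and 14.73 ± 0.31 in WT (SD, n = 4 each).

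Tyrobp, the adaptor, also rose in both lines. Its log2 signal was 18.10, 18.37, 18.45 and 18.01 in gated APP cells and 18.22, 18.07, 17.94 and 17.81 in gated TAU cells. In WT at 12 months it was 16.76, 16.84, 17.22 and 16.89. Again no gated sample fell within the WT range, while the gated groups overlapped each other. The means were 18.23 ± 0.21 in gated APP, 18.01 ± 0.18 in gated TAU and 16.93 ± 0.20 in WT (SD, n = 4 each). Both genes were bright on every array, Trem2 between the 97.62 and 99.36 percentile of the probe sets and Tyrobp between the 99.31 and 99.84 percentile.

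**Figure D1:**
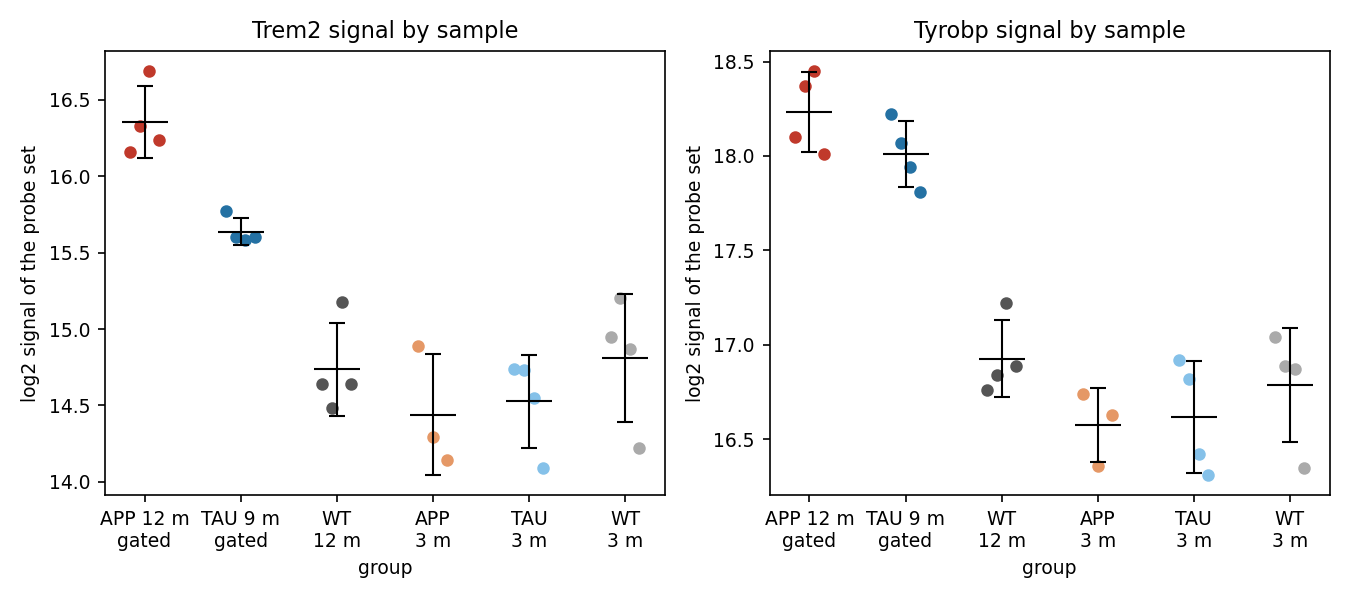
Log2 signal of the Trem2 (left) and Tyrobp (right) probe sets in each of 23 samples, by group (m, months), with a point per sample, the group mean as a long bar and the SD as error bars. All gated samples lie above all other samples for both genes, and gated APP lies above gated TAU without overlap for Trem2 but not for Tyrobp.

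The gated APP cells were set against WT cells of the same age to show the receptor pair in active microglia of the amyloid line. Trem2 was 3.07-fold higher, a log2 fold change of 1.62 ± 0.22 (SE, 95% confidence interval 1.17 to 2.07), with an adjusted p of 1.41e-05 (limma, Benjamini-Hochberg over all probe sets, threshold 0.05). Tyrobp was 2.47-fold higher, at 1.31 ± 0.18 (0.93 to 1.68, limma adjusted p = 2.29e-05). In this comparison 9.08% of all probe sets were called, 5.6% higher and 3.48% lower. Of all probe sets, 98.51% had a lower log2 fold change than Trem2 and 97.72% a lower one than Tyrobp. In bulk samples of sorted cells, more RNA per cell and more cells that hold it cannot be told apart.

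The same comparison for gated TAU cells uses the same 4 WT samples. Tyrobp was 2.12-fold higher, at 1.08 ± 0.18 (0.71 to 1.46, limma adjusted p = 0.00033). Trem2 was 1.87-fold higher, at 0.90 ± 0.22 (0.46 to 1.35, limma adjusted p = 0.00933). Of all probe sets 8.76% were called, 5.09% higher and 3.67% lower. Without WT 12 months replicates 2 and 4 the Trem2 log2 fold change was 0.73 and no longer called (adjusted p = 0.128), while Tyrobp was at 1.02 and still called (adjusted p = 0.00995). The share of probe sets with a lower log2 fold change was 96.43% for Trem2 and 97.46% for Tyrobp.

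The comparison of gated APP with gated TAU sets the amyloid line beside the tau line with both gated. The APP mice were 12 and the TAU mice 9 months old, so line and age cannot be told apart in it. Trem2 was 1.64-fold higher in gated APP cells, with a log2 difference of 0.72 ± 0.22 (SE, 0.27 to 1.17). It was not called in the fit across all probe sets (unadjusted p = 0.00309, limma adjusted p = 0.161). All 4 gated APP samples lay above all 4 gated TAU samples, as held for 2.56% of all probe sets. An exact two-sided permutation test of Trem2 alone, added after the values were seen, gave p = 0.0286, the smallest that 4 against 4 samples allow. Same-numbered samples of these 2 groups correlated in their deviations from the group means, the 1 of 15 pairs of groups with all r over 0.1. Correlations between samples of different number were not computed, so a pairing is not shown. With the number as a block in a fit on these groups alone Trem2 was still not called (0.72 ± 0.20, limma adjusted p = 0.218).

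Tyrobp differed less between the gated lines. Its log2 difference was 0.22 ± 0.18 (SE, -0.15 to 0.60, limma adjusted p = 0.816), and the groups overlapped. The interval leaves room for a difference of up to 0.60 on the log2 scale, so equal Tyrobp levels are not shown. Of all probe sets 0.928% were called, 0.626% higher in gated APP and 0.302% lower. Masp1, Trem1 and Igf1, described further on, were among those called higher.

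**Figure D2:**
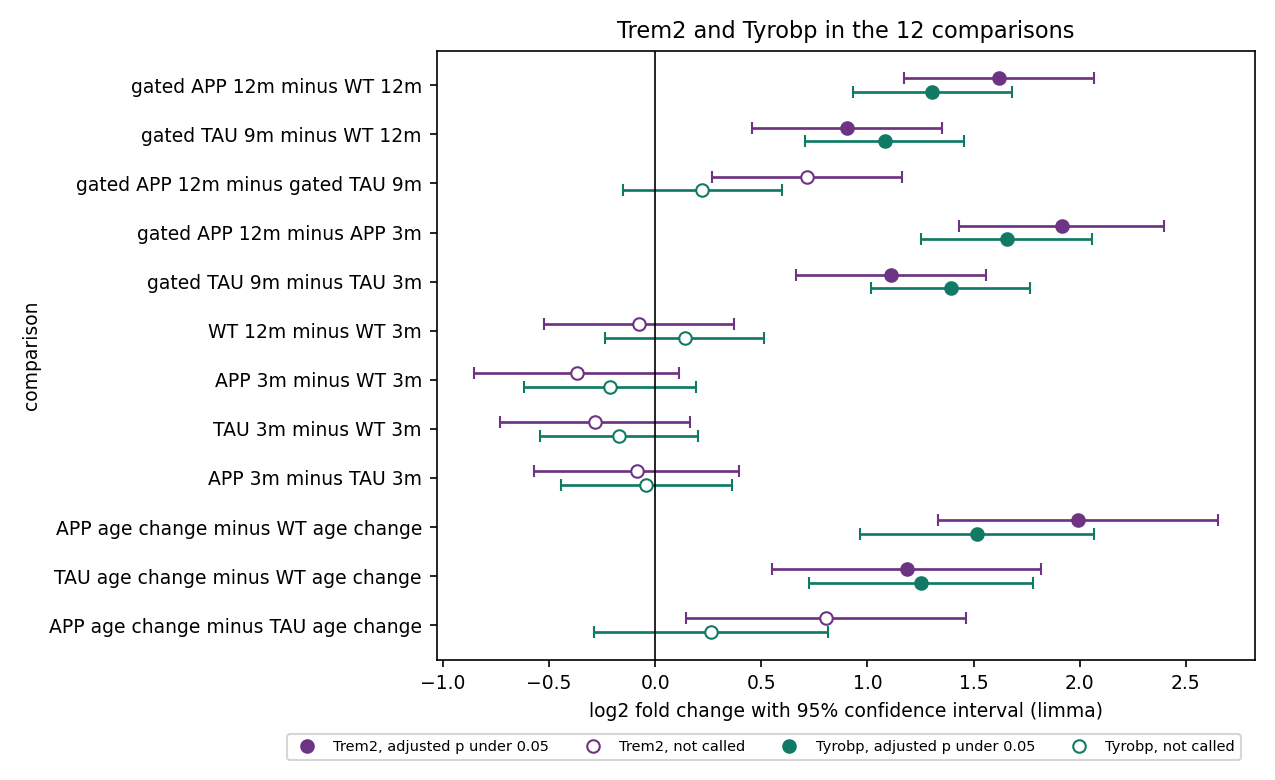
Log2 fold change of Trem2 and Tyrobp with its 95% confidence interval (horizontal axis) in the 12 comparisons (vertical axis, m for months), each named as the group on top minus the group below. Filled points have a limma adjusted p under 0.05. The intervals of both genes lie above 0 in each comparison of a gated group with WT or with its own young group, and cross 0 in the comparisons among WT and young groups.

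Receptor and adaptor were next compared within each array, where a difference of log2 signals does not depend on the scaling of the array. It bears on unequal change of signal, not on unequal levels. Whether the signals of the 2 probe sets follow the amount of RNA alike at these high levels was not tested. Trem2 minus Tyrobp was -1.94, -2.04, -1.76 and -1.77 in gated APP and -2.45, -2.47, -2.36 and -2.21 in gated TAU. In WT at 12 months it was -2.12, -2.36, -2.04 and -2.25. The gated APP values were thus all above the gated TAU values, and the WT values touched or overlapped both sets. The group means were -1.88 ± 0.14 in gated APP, -2.37 ± 0.12 in gated TAU and -2.19 ± 0.14 in WT at 12 months (SD, n = 4 each).

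Between gated APP and gated TAU, Trem2 moved by 0.495 more than Tyrobp on the log2 scale (exact two-sided permutation p = 0.0286, the smallest possible here). Adjusted over the 4 such comparisons made, p was 0.114, so the unequal change did not pass the correction. It was 0.315 between gated APP and WT (exact p = 0.0571, adjusted 0.114) and -0.18 between gated TAU and WT (exact p = 0.143, adjusted 0.143). For WT at 12 months minus WT at 3 months it was -0.215 (exact p = 0.143, adjusted 0.143). Leaving out any 1 of the 8 gated samples left the difference between the lines at 0.456 to 0.549, each time with the smallest p then possible, 0.0571. Taken as 4 pairs of same-numbered samples it was above 0 in 4 of 4 (0.43 to 0.6), with an exact paired p of 0.125, the smallest that 4 pairs allow.

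**Figure D3:**
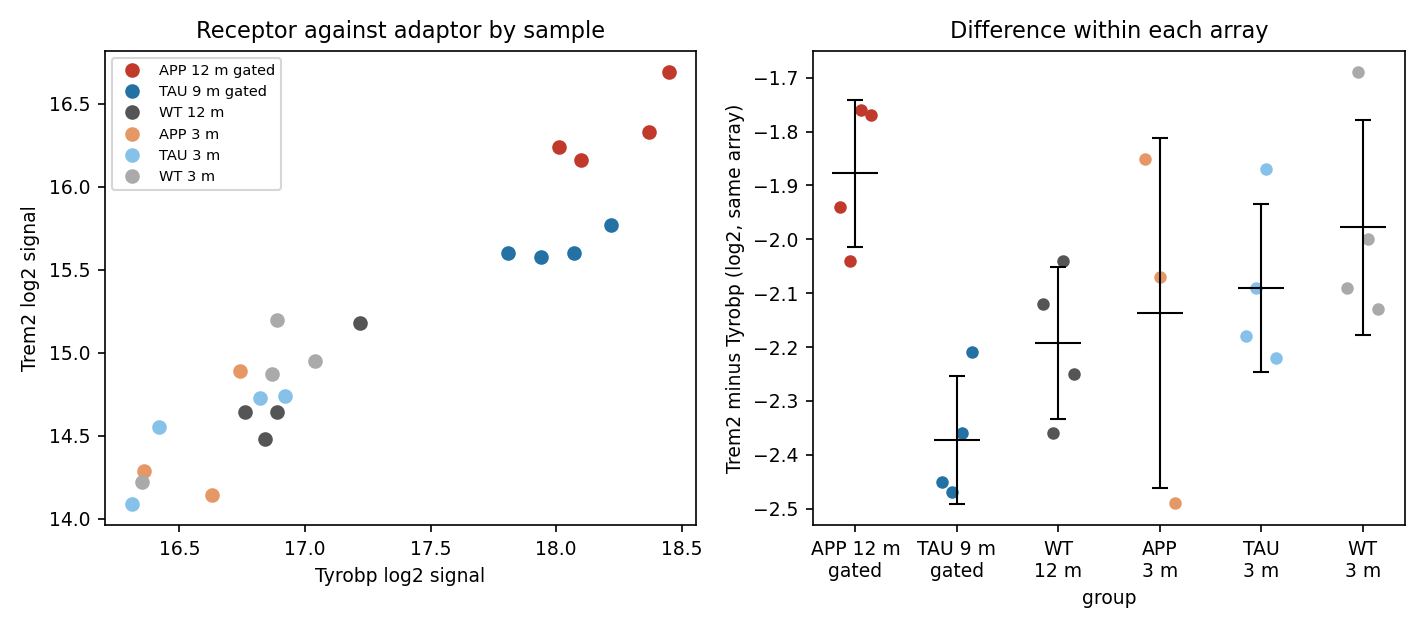
Left, Trem2 log2 signal (vertical axis) against Tyrobp log2 signal (horizontal axis), a point per sample, coloured by group. Right, Trem2 minus Tyrobp on the same array (log2, vertical axis) by group, with the group mean as a long bar and the SD as error bars. At a similar Tyrobp signal the gated APP samples have more Trem2 signal than the gated TAU samples, and their within-array differences do not overlap.

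Across the 15 samples without the gate, Trem2 and Tyrobp varied together. Pearson's r was 0.822 (permutation p = 0.00038, adjusted 0.00076 over 4 relations) and Spearman's rho 0.806 (permutation p = 0.00036, adjusted 0.00072). Without the 2 samples farthest from the median of Trem2, r was 0.814 (n = 13, permutation p = 0.0012). On deviations from the group means r was 0.823 (permutation p = 0.00016, adjusted 0.00064) and rho 0.83 (permutation p = 6e-05, adjusted 0.00024), and without the 2 farthest samples r was 0.682 (permutation p = 0.012). The 8 gated samples formed separate sets by line, each too small for a correlation of its own. On deviations from their group means r was 0.767 (exact permutation p = 0.01, adjusted 0.014). Spearman's rho was 0.85 there (exact permutation p = 0.011, adjusted 0.014). Without the 2 farthest samples r was 0.506 (n = 6, exact permutation p = 0.31), so the relation in gated samples rested on few of them. Deviations within a group are not independent of each other, and they were shuffled across groups. The p-values on deviations, in ungated and in gated samples, may therefore come out too small.

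The young groups give the level of the pair at 3 months without the gate. Trem2 was 14.89, 14.29 and 14.14 in young APP, 14.74, 14.73, 14.55 and 14.09 in young TAU and 14.95, 15.20, 14.87 and 14.22 in young WT. Tyrobp was 16.74, 16.36 and 16.63 in young APP, 16.92, 16.82, 16.42 and 16.31 in young TAU and 17.04, 16.89, 16.87 and 16.35 in young WT. These ranges overlapped for both genes, and the young WT mean was the highest of the 3 for both. For comparison, all samples of young APP lay above all of young WT in 1.95% of probe sets, all of young TAU above all of young WT in 1.63% and all of young APP above all of young TAU in 1.61%.

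Neither gene was called in a comparison among the young groups. Trem2 differed by -0.37 between young APP and young WT (95% interval -0.85 to 0.11, limma adjusted p = 1). Between young TAU and young WT it differed by -0.28 (-0.73 to 0.17, limma adjusted p = 0.998). The Tyrobp differences were -0.21 for young APP (-0.62 to 0.19, limma adjusted p = 1) and -0.17 for young TAU (-0.54 to 0.20, limma adjusted p = 0.998). The limma fit called 0 probe sets in either comparison, and 648 and 922 probe sets had an unadjusted p under 0.05. When the signal of the Y-linked genes was added as a covariate, the Tyrobp differences turned to 0.157 and 0.129, still not called. That signal was 4.14 to 4.62 in young APP and 4 to 6.88 in young TAU, all below young WT (6.98 to 7.46). The covariate and the line can therefore hardly be told apart in these comparisons.

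Between young APP and young TAU, Trem2 differed by -0.087 (-0.57 to 0.40) and Tyrobp by -0.041 (-0.45 to 0.36), both with a limma adjusted p of 0.9997. Here too 0 probe sets were called, with 351 at an unadjusted p under 0.05, again below the share that chance alone would give. In WT microglia, age without transgene or gate gave a Trem2 difference of -0.075 for 12 minus 3 months (-0.52 to 0.37, limma adjusted p = 0.938). For Tyrobp it was 0.14 (-0.23 to 0.51, limma adjusted p = 0.837). Of all probe sets 0.036% were called in WT with age, all of them higher at 12 months. The WT samples of both ages overlapped for both genes, and 2.09% of all probe sets had all 12 months samples above all 3 months samples.

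Each gated group was also set against its own young group. Trem2 was 3.77-fold higher in gated APP than in young APP (log2 fold change 1.92 ± 0.23, SE, limma adjusted p = 3.99e-06) and Tyrobp 3.15-fold higher (1.66 ± 0.20, limma adjusted p = 2.63e-06). In gated TAU against young TAU, Tyrobp was 2.63-fold higher (1.39 ± 0.18, limma adjusted p = 1.03e-05) and Trem2 2.16-fold higher (1.11 ± 0.22, limma adjusted p = 0.000991). Called shares of all probe sets were 12.1% for APP (6.19% higher, 5.95% lower) and 13.5% for TAU (6.67% higher, 6.81% lower). For both genes all gated samples lay above all young samples of their line, as held for 10% of all probe sets in APP and 8.28% in TAU.

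The change with age, gate included, was larger in both transgenic lines than in WT by the test of the interaction. For Trem2 the APP change exceeded the WT change by 1.99 ± 0.32 (SE, limma adjusted p = 0.00036), where 3.8% of all probe sets were called (2.82% higher, 0.977% lower). The TAU change exceeded it by 1.19 ± 0.31 (limma adjusted p = 0.0295), with 3.75% called (2.6% higher, 1.15% lower). For Tyrobp the excess was 1.52 ± 0.27 in APP (limma adjusted p = 0.00102) and 1.25 ± 0.26 in TAU (limma adjusted p = 0.00548).

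The Trem2 interaction in TAU was the least firm of these 4. It lost its call without any 1 of 9 samples, with values from 1.04 to 1.38 over all 16 samples left out in turn and a highest adjusted p of 0.0748. These 9 were young WT replicates 1, 2 and 3, young TAU replicates 3 and 4, WT 12 months replicates 1, 2 and 4 and gated TAU replicate 1. The APP change minus the TAU change was 0.81 ± 0.32 for Trem2 (0.15 to 1.46, limma adjusted p = 0.807) and 0.26 ± 0.27 for Tyrobp (limma adjusted p = 0.9998), neither called. Of all probe sets 0.234% were called there, 0.167% higher and 0.0676% lower.

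In order of mean level, Trem2 was highest in gated APP, then gated TAU, WT at 3 months (14.81 ± 0.42), WT at 12 months, young TAU (14.53 ± 0.30) and young APP (14.44 ± 0.40, SD, n = 4 each and n = 3 in young APP). For Tyrobp the order was gated APP, gated TAU, WT at 12 months, young WT (16.79 ± 0.30), young TAU (16.62 ± 0.30) and young APP (16.58 ± 0.20). In both orders the only neighbours whose samples did not overlap were gated TAU and the group after it and, for Trem2, gated APP and gated TAU.

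Among the ligands of TREM2, Apoe, Clu, Lgals3 and Il34 were above background in gated cells of both lines. Il34 was barely so in gated TAU (7.61 to 8.2, background 7.83). Of the 5 ligand genes fixed, 2 rose in gated APP and the same 2 in gated TAU, where 5.6% and 5.09% of all probe sets were called higher. The median log2 fold change was 0.39 in APP and 0.22 in TAU, against -0.06 and -0.05 over all probe sets. Apoe, which encodes a lipoprotein that binds TREM2, was at 18.09 ± 0.23 in gated APP, 17.84 ± 0.58 in gated TAU and 10.61 ± 0.68 in WT at 12 months (SD, n = 4 each). That is a log2 fold change of 7.48 ± 0.39 in APP (SE, limma adjusted p = 4.28e-12) and 7.24 ± 0.39 in TAU (limma adjusted p = 1.07e-11). Lgals3, which encodes galectin 3, was at 10.14 ± 0.75 in gated APP, 10.82 ± 0.93 in gated TAU and at background in WT. It was at least 4.06-fold higher in APP and at least 6.51-fold higher in TAU, a bound taken against the level of background in WT (limma adjusted p = 1.46e-05 and 8.07e-07). Clu, the clusterin gene, was not called (10.69 ± 0.89 in gated APP, 10.45 ± 1.07 in gated TAU and 11.09 ± 0.98 in WT). Il34 and Hspd1 were not called in either line.

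Of 7 measured genes for enzymes that cut TREM2 at the membrane and within it, 1 rose and 1 fell in gated APP (median -0.055) and 1 rose in gated TAU (median 0.13), where 9.08% of all probe sets were called in APP and 8.76% in TAU. In APP, Adam10, a sheddase gene, was lower at -0.75 ± 0.21 (limma adjusted p = 0.023), and Ncstn, a gamma-secretase subunit gene, higher at 1.38 ± 0.43 (limma adjusted p = 0.0442). Adam10 lost its call without WT 12 months replicate 1 or 3 or gated APP replicate 3, at -0.60 to -0.89 over the samples left out. Ncstn lost its call without WT 12 months replicates 1, 2 or 4 or gated APP replicates 1, 2 or 3, at 0.99 to 1.66, and was at 0.80 without WT 12 months replicates 2 and 4 together. In TAU, Psen2, a catalytic subunit gene of gamma-secretase, was at least 1.71-fold higher, from a WT signal at background (limma adjusted p = 0.0381). That call was lost without WT 12 months replicates 1, 2 or 4 or gated TAU replicates 1 or 3, at 0.56 to 1.11 (log2 fold change). Adam17, which encodes the sheddase also known as TACE, was at 10.76 ± 0.19 in gated APP, 11.26 ± 0.14 in gated TAU and 11.13 ± 0.09 in WT, and was not called.

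Within the Trem family, whose genes lie together on mouse chromosome 17, 3 of 6 rose in gated APP and 2 in gated TAU, Trem2 counted in both. The share of all probe sets called higher was 5.6% in APP and 5.09% in TAU. Treml2, a TREM-like receptor gene, was at 11.22 ± 0.30 in gated APP, 11.16 ± 0.32 in gated TAU and 9.93 ± 0.33 in WT. It was higher by 1.29 ± 0.21 in APP (limma adjusted p = 0.00014) and by 1.23 ± 0.21 in TAU (limma adjusted p = 0.000362). Trem1, an activating receptor gene of myeloid cells whose product also pairs with DAP12, was 8.97, 8.61, 8.62 and 8.53 in gated APP. It was 7.09, 7.33, 7.52 and 6.71 in gated TAU and 7.16, 7.52, 7.01 and 6.91 in WT at 12 months, at background in both groups. Gated APP was thus the 1 group of these 3 with a Trem1 signal above background. Trem1 was at least 1.48-fold higher in gated APP than in WT (limma adjusted p = 4.59e-06) and at least 1.81-fold higher than in gated TAU (limma adjusted p = 3.63e-05). Trem3, Treml1 and Treml4 were at background in the gated and the WT 12 months groups.

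Tyrobp belongs to a small set of signalling adaptors, in which 3 of 4 rose in each gated line, Tyrobp counted. The share of all probe sets called higher was 5.6% in APP and 5.09% in TAU. The TAU count includes Hcst, called there between signals at background. Fcer1g, which encodes the Fc receptor gamma chain, was at 13.90 ± 0.33 in gated APP, 14.06 ± 0.27 in gated TAU and 12.92 ± 0.24 in WT. Its log2 fold change was 0.99 ± 0.24 in APP (limma adjusted p = 0.0104) and 1.14 ± 0.24 in TAU (limma adjusted p = 0.00375). Both calls were lost without WT 12 months replicates 2 and 4, at 0.85 in APP (adjusted p = 0.12) and 1.01 in TAU (adjusted p = 0.0557).

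Hcst encodes DAP10, an adaptor that can pair with DAP12, and its gene lies next to Tyrobp on mouse chromosome 7. Its signal was 8.30, 9.46, 8.67 and 8.29 in gated APP, 7.56, 7.91, 7.71 and 7.75 in gated TAU and 6.98, 6.72, 7.39 and 6.98 in WT at 12 months. The last 2 of these groups were at background, so that only a bound can be given. Hcst was at least 1.47-fold higher in gated APP than in WT (limma adjusted p = 7.89e-06) and at least 1.81-fold higher than in gated TAU (limma adjusted p = 0.0264). The call between the lines was lost without gated APP replicates 2 or 3 or gated TAU replicates 1, 3 or 4, with log2 differences from 0.69 to 1.08, and with the replicate number as a block in a fit on the gated groups alone (adjusted p = 0.0985). The TAU call against WT, between signals at background (limma adjusted p = 0.0374), was lost without 7 of 8 samples, all but WT 12 months replicate 3, at 0.62 to 0.84 (log2 fold change). Cd247, the T cell adaptor, was at background throughout these 3 groups.

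Of 19 measured genes for receptors that can pair with DAP12 or signal together with it, Trem2 and Trem1 included, 3 rose and 3 fell in gated APP and 5 rose and 4 fell in gated TAU. Of all probe sets 5.6% were called higher and 3.48% lower in APP, and 5.09% higher and 3.67% lower in TAU. The medians of the list were -0.053 in APP and 0.12 in TAU, against -0.062 and -0.052 over all probe sets. Cd200r4, an activating member of the CD200 receptor family, was at 10.54 ± 0.44 in gated APP, 8.39 ± 0.88 in gated TAU and at background in WT. It was at least 5.34-fold higher in APP and at least 1.20-fold higher in TAU (limma adjusted p = 3.08e-11 and 1.10e-07), and 4.44-fold higher in gated APP than in gated TAU (limma adjusted p = 0.000835). Cd33, a sialic acid receptor gene linked to Alzheimer risk in humans, was lower by 1.38 ± 0.26 in APP (11.36 ± 0.12 against 12.74 ± 0.24 in WT, limma adjusted p = 0.000801). In gated TAU it was lower by 1.06 ± 0.26 (11.68 ± 0.24, limma adjusted p = 0.011). Csf1r, the CSF1 receptor gene, fell by 0.72 ± 0.14 in APP and by 0.68 ± 0.14 in TAU (limma adjusted p = 0.00114 and 0.00257).

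Further receptors were called in 1 line or rested on few samples. Itgam, the CD11b gene on which the cells were also sorted, fell in gated TAU by 1.16 ± 0.24 (limma adjusted p = 0.00314) and in gated APP by 0.81 ± 0.24 (limma adjusted p = 0.0363). The APP call was lost without WT 12 months replicates 1, 3 or 4 or gated APP replicates 1, 3 or 4, at -0.89 to -0.72. In gated TAU, Siglech, a microglial lectin gene, fell by 0.75 ± 0.14 (limma adjusted p = 0.00112), and Clec5a, a C-type lectin gene, rose by 0.90 ± 0.22 (limma adjusted p = 0.0126). Clec5a lost its call without WT 12 months replicate 2, where its adjusted p was 0.0518. Itgb2, the integrin beta chain that pairs with CD11b, rose by 0.95 ± 0.25 (limma adjusted p = 0.0196), a call lost without WT 12 months replicates 2 or 4 or gated TAU replicates 1 or 3, at 0.79 to 1.18, and at 0.55 without WT 12 months replicates 2 and 4 together. Cd300lb was called between signals at background in TAU. For these genes the difference between the gated lines was tested and not called.

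**Figure D4:**
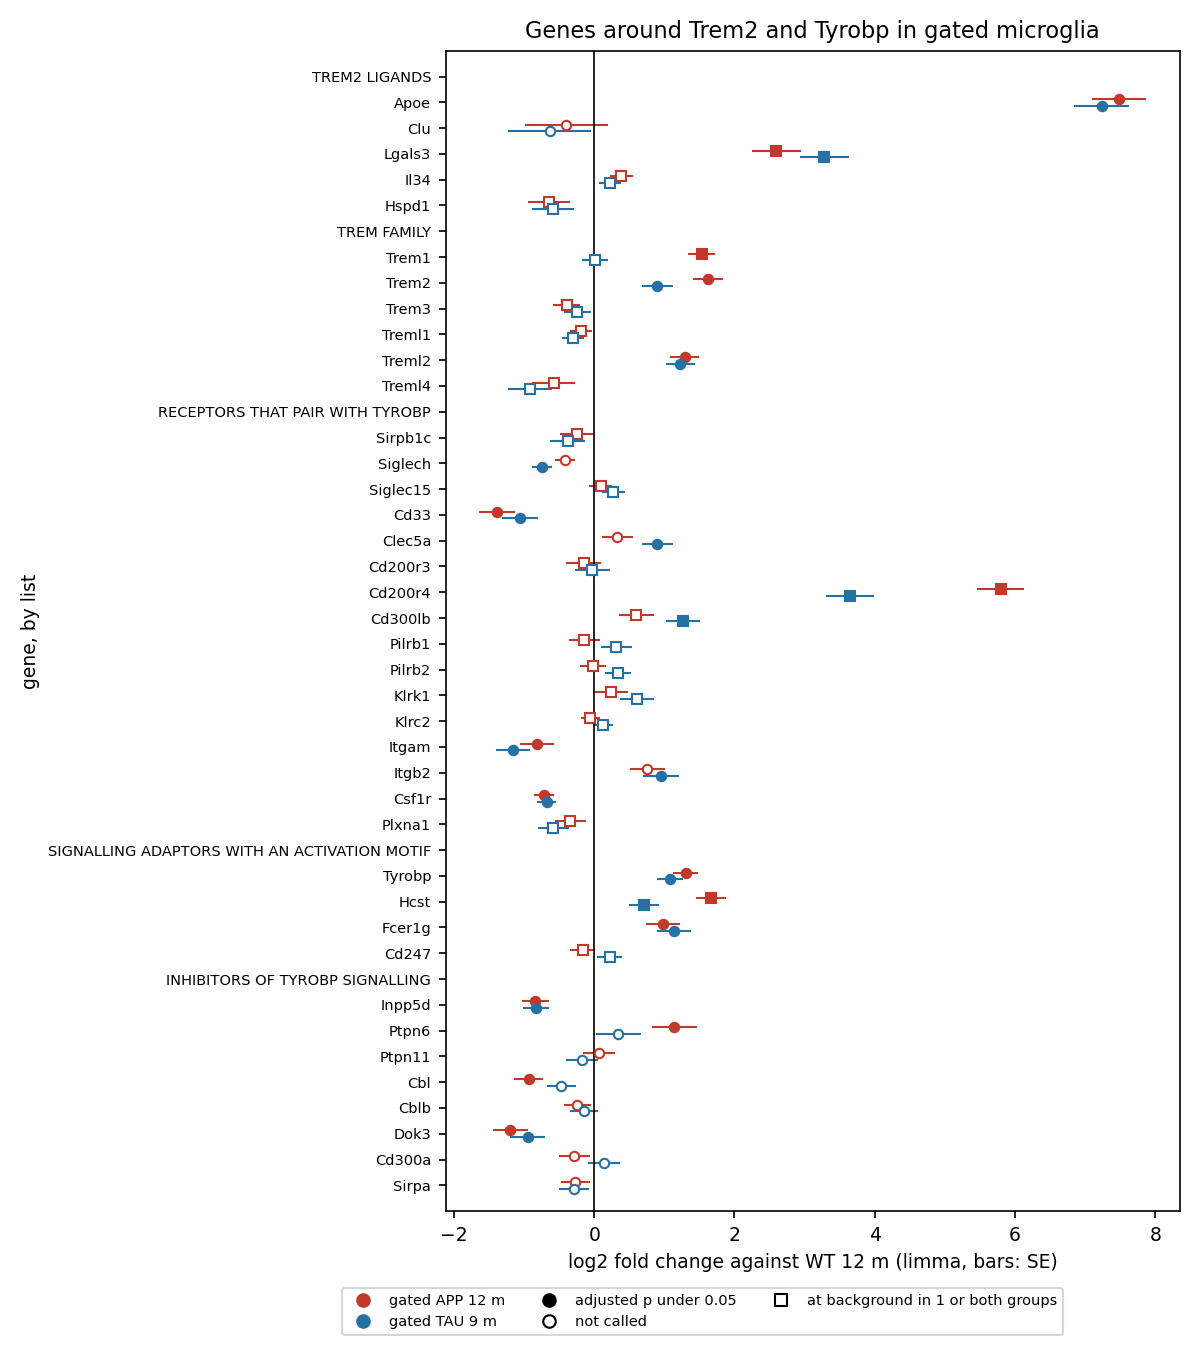
Log2 fold change against WT at 12 months (horizontal axis, bars show the SE) of the measured genes around Trem2 and Tyrobp (vertical axis, grouped by list, each gene drawn once) in gated APP and gated TAU. Filled symbols have a limma adjusted p under 0.05, and squares mark genes at background in 1 or both groups, whose fitted value is no bound. Apoe and Cd200r4 lie farthest to the right, and Cd33, Csf1r, Itgam, Inpp5d and Dok3 lie below 0 in both lines.

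Downstream of DAP12, 26 genes of the signalling list were measured. Of these, 2 rose and 1 fell in gated APP, where 5.6% of all probe sets were called higher and 3.48% lower, a share near that background. In gated TAU 3 rose and 3 fell (5.09% higher and 3.67% lower over all probe sets), and the medians were 0.019 in APP and -0.023 in TAU. Syk, the kinase gene recruited by DAP12, was at 10.81 ± 0.50 in gated APP, 10.69 ± 0.45 in gated TAU and 11.20 ± 0.37 in WT (SD, n = 4 each), and was not called. Malt1, a scaffold protease gene that links SYK to NF-kB, rose by 1.70 ± 0.27 in APP (limma adjusted p = 0.000116) and by 1.27 ± 0.27 in TAU (limma adjusted p = 0.00328). Lat2, a linker gene downstream of SYK, rose by 1.22 ± 0.21 in APP and by 1.37 ± 0.21 in TAU (limma adjusted p = 0.000292 and 0.000103).

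The remaining calls in this list rested on few samples. Prkcd, a protein kinase C gene, fell by 0.87 ± 0.22 in APP (limma adjusted p = 0.0118) and by 0.70 ± 0.22 in TAU (limma adjusted p = 0.0493). The APP call was lost without gated APP replicate 1 (adjusted p = 0.0605), and the TAU call without 7 of 8 samples, all but WT 12 months replicate 2, at -0.82 to -0.57. In gated TAU the PI3 kinase subunit genes Pik3r1 and Pik3cg fell by 0.96 ± 0.29 and 1.13 ± 0.31 (limma adjusted p = 0.0375 and 0.0257). Pik3r1 lost its call without WT 12 months replicates 1 or 3 or any 1 gated TAU sample, at -1.12 to -0.83. Pik3cg lost it without WT 12 months replicates 1 or 3 or gated TAU replicates 2 or 4, at -1.40 to -0.92. Fyn, a Src family kinase gene, was called higher in TAU from a WT signal at background (limma adjusted p = 0.0361). Fyn lost its call without WT 12 months replicates 1, 2 or 4 or gated TAU replicates 1, 3 or 4, at 0.67 to 1.03.

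Of the 8 genes that restrain DAP12 signalling, 3 fell and 1 rose in gated APP and 2 fell in gated TAU, with medians of -0.28 in APP and -0.23 in TAU. Over all probe sets 3.48% fell and 5.6% rose in APP, and 3.67% fell in TAU. Inpp5d, which encodes the phosphatase SHIP1, was at 15.12 ± 0.28 in gated APP, 15.13 ± 0.12 in gated TAU and 15.96 ± 0.28 in WT. It fell by 0.84 ± 0.19 in APP (limma adjusted p = 0.00462) and by 0.83 ± 0.19 in TAU (limma adjusted p = 0.00639). Dok3, an inhibitory adaptor gene, fell by 1.20 ± 0.25 in APP (limma adjusted p = 0.00213) and by 0.95 ± 0.25 in TAU (limma adjusted p = 0.0167). The TAU call for Dok3 was lost without WT 12 months replicates 2 or 4 or gated TAU replicate 1, at -1.05 to -0.85. Without WT 12 months replicates 2 and 4 together both Dok3 calls were lost, at -0.97 in APP and -0.72 in TAU. Cbl, a ubiquitin ligase gene, fell in APP by 0.94 ± 0.20 (limma adjusted p = 0.0033), a call lost in a fit on those 2 groups alone (adjusted p = 0.0693). Ptpn6, which encodes the phosphatase SHP1, rose in APP by 1.14 ± 0.32 (limma adjusted p = 0.0249), a call lost without WT 12 months replicates 2 or 4 or gated APP replicates 2 or 3, at 0.89 to 1.42, and at 0.53 without WT 12 months replicates 2 and 4 together.

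Trem2 and Tyrobp also stand in the DAM programme. Tyrobp is in its first stage, described in mice as reached without TREM2, and Trem2 in its second, described as needing TREM2. Of 8 measured stage 1 genes, 8 rose in gated APP and 7 in gated TAU, with median log2 fold changes of 1.49 in APP and 1.44 in TAU. Of 13 measured stage 2 genes, 12 rose in each line, with medians of 3.64 in APP and 3.72 in TAU. Over all probe sets 5.6% were called higher in APP and 5.09% in TAU. These groups were selected with the Clec7a gate, and the share of these counts that goes with the gate was not tested.

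The changes of Trem2 and Tyrobp were among the smaller ones in their stages. In stage 1, Lyz2, the lysozyme gene, rose by 3.60 ± 0.28 in APP and 3.48 ± 0.28 in TAU, and H2-D1, an MHC class I gene, by 2.59 ± 0.25 in APP and 2.84 ± 0.25 in TAU. B2m, the MHC light chain gene, rose by 0.89 ± 0.16 in APP and 0.79 ± 0.16 in TAU, values below those of Tyrobp in each line, and its TAU call was lost with quantile normalization, at 0.47 (adjusted p = 0.112). Fth1, a ferritin gene, rose in APP by 0.68 ± 0.19 (limma adjusted p = 0.0214), a call lost without WT 12 months replicates 2 or 4 or gated APP replicates 1 or 2, at 0.62 to 0.79. In stage 2, Cst7, the cystatin F gene, rose by 7.85 ± 0.30 in APP and 6.93 ± 0.30 in TAU. Axl, a receptor tyrosine kinase gene, was at least 65.2-fold higher in APP and at least 81.4-fold higher in TAU, from a WT signal at background. Lpl, a lipase gene, was the 1 measured stage 2 gene not called in either line (9.19 ± 0.24 in gated APP, 9.40 ± 0.29 in gated TAU and 8.91 ± 0.17 in WT).

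Between the gated lines, 0 of 8 stage 1 genes and 4 of 13 stage 2 genes were called, against 0.928% of all probe sets. Igf1, a growth factor gene, was higher in gated APP than in gated TAU by 3.67 ± 0.26 (16.74 ± 0.39 against 13.07 ± 0.74, limma adjusted p = 8.43e-09). Gpnmb, a lysosomal glycoprotein gene, was higher by 3.03 ± 0.38 (11.82 ± 0.69 against 8.79 ± 0.95, limma adjusted p = 3.63e-05). Ctsl, the cathepsin L gene, was higher by 0.77 ± 0.18 (14.31 ± 0.18 against 13.54 ± 0.19, limma adjusted p = 0.0323). Its call was lost without gated APP replicates 1, 2 or 4 or gated TAU replicates 1 or 4, at 0.69 to 0.83, and with the replicate number as a block in a fit on the gated groups alone (adjusted p = 0.152). Itgax, the CD11c gene, was lower in gated APP by 1.15 ± 0.22 (11.89 ± 0.46 against 13.04 ± 0.23, limma adjusted p = 0.00711), a call lost in a fit on the gated groups alone (adjusted p = 0.0804). The Ctsl difference was close in size to that of Trem2.

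**Figure D5:**
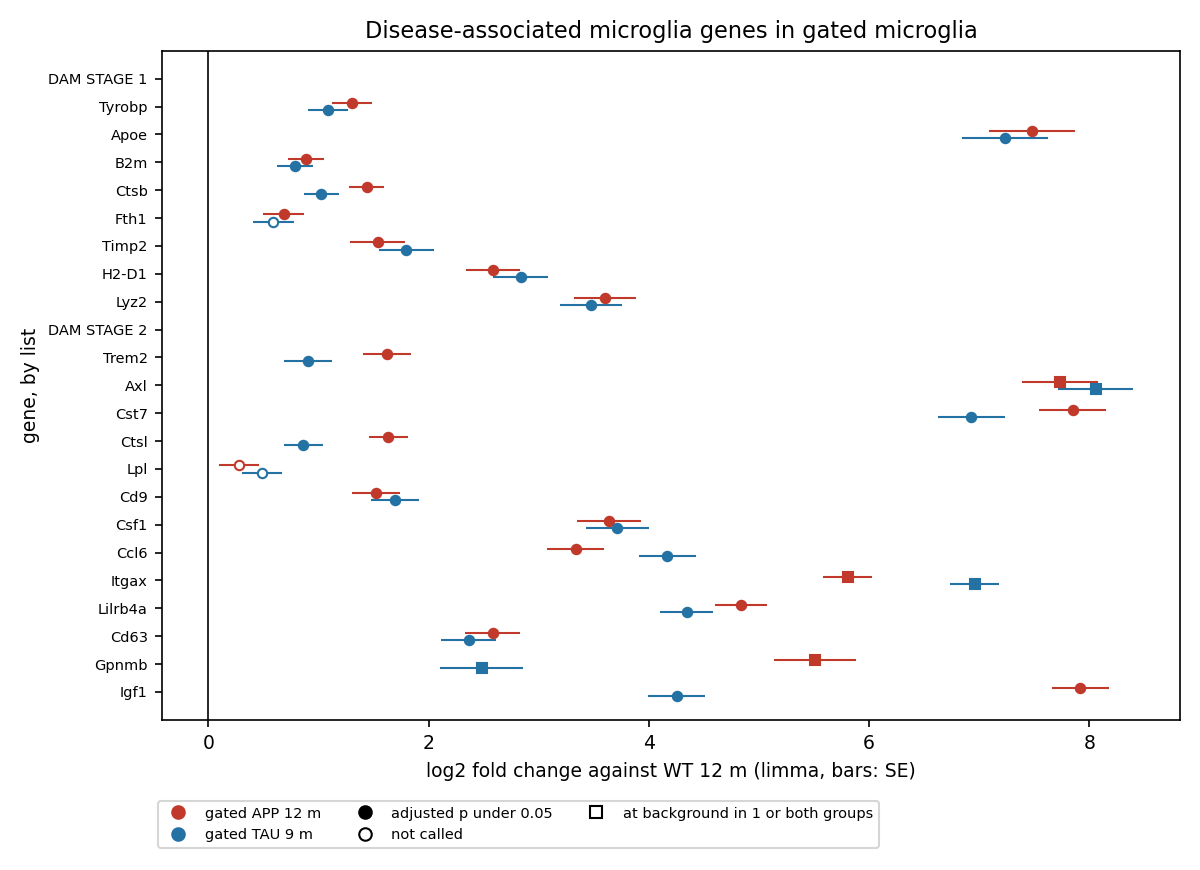
Log2 fold change against WT at 12 months (horizontal axis, bars show the SE) of the measured genes of both DAM stages (vertical axis) in gated APP and gated TAU. Filled symbols have a limma adjusted p under 0.05, and squares mark genes at background in WT, whose fitted value is no bound. Tyrobp and Trem2 lie nearer to 0 than most genes of their stage, and Igf1, Gpnmb and Itgax are the genes whose points for the 2 lines lie farthest apart.

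The genes whose signal over all 23 samples was most like that of Trem2 were Hexa (r = 0.955), Tyrobp (0.953), Masp1 (0.949), Npc2 (0.947), Ssr4, Vkorc1, Nenf and Ggh (0.945 to 0.946). Tyrobp was most like Vkorc1 (r = 0.972), Npc2, Ubl5, Ssr4, Cox7a2, Cox7a2l, Cst7 and Nenf (0.964 to 0.966), and Trem2 was in place 19 (0.953). These correlations are descriptions over samples of all 6 groups, whose line, age, pathology and gate differ together. Hexa, a lysosomal hexosaminidase gene, was higher by 1.80 ± 0.20 in gated APP and 1.03 ± 0.20 in gated TAU. Masp1, a lectin pathway protease gene, rose by 2.86 ± 0.29 in APP and by 0.995 ± 0.29 in TAU, and was higher in gated APP than in gated TAU by 1.86 ± 0.29 (limma adjusted p = 0.000753).

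When the group means were removed, the genes closest to Trem2 were Fkbp7 (r = 0.906), Anapc10 (0.875), Sc5d (0.849) and Ms4a6d (0.845), and Tyrobp was in place 12 (0.804). The closest to Tyrobp were Ssr4 (0.873), H4c8 (0.817) and Trem2, in place 3 (0.804). The deviations of the 23 samples share array quality, sample makeup and, within a sample, the same RNA.

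Cells other than parenchymal microglia can express Tyrobp, among them macrophages, neutrophils and NK cells. For the 7 border macrophage markers the summed signal on the log2 scale was 11.14 to 11.6 in gated APP, 12.44 to 14.59 in gated TAU and 11.19 to 11.76 in WT at 12 months, with 3, 4 and 4 markers above background. The sum is taken over linear signals, so the brightest marker weighs most in it. Against WT, 1 marker was called higher in gated TAU and 6 were not called (median 0.155), where 5.09% of all probe sets were called higher. Between the gated lines 2 were called lower in gated APP and 5 were not called, where 0.302% of all probe sets were called lower. Ms4a7, one of them, rose by 3.56 ± 0.47 in gated TAU (limma adjusted p = 1.82e-05), and was lower in gated APP than in gated TAU by 2.56 ± 0.47 (9.73 ± 0.39 against 12.29 ± 1.39, limma adjusted p = 0.00436). Mrc1 was also lower in gated APP than in gated TAU (9.04 ± 0.45 against 10.72 ± 0.72, limma adjusted p = 0.0243). Mrc1, Pf4 and Ms4a7 were above background in all 3 groups, Cbr2 in gated TAU and WT, and Cd163, Lyve1 and F13a1 in none of them.

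For the 5 neutrophil markers the summed signal was 8.11 to 8.41 in gated APP, 8.02 to 8.27 in gated TAU and 8.69 to 11.31 in WT at 12 months, with 0, 0 and 1 above background. For the 7 NK and T cell markers it was 8.82 to 9.2 in gated APP, 9.76 to 10.45 in gated TAU and 8.42 to 9.83 in WT, with 1, 1 and 0 above background. Klrb1c, the NK marker above background, was at least 2.88-fold higher in gated TAU than in WT (limma adjusted p = 0.0443). Single markers of cells outside the immune system also differed in gated APP. Against WT, 1 of 5 astrocyte markers was called higher (median of the list -0.195), and of 4 endothelial markers 1 higher and 1 lower. Of 5 neuron and 4 oligodendrocyte markers 0 were called. Flt1, an endothelial gene, was at 9.41 ± 0.87 in gated APP, barely above background in gated TAU (7.85 ± 0.32, background 7.83) and at background in WT (7.32 ± 0.32). It was at least 2.44-fold higher in gated APP than in WT (limma adjusted p = 5.18e-05) and higher than in gated TAU by 1.56 ± 0.31 (limma adjusted p = 0.00813). Gfap, an astrocyte gene, was at 7.91 ± 0.92 in gated APP and at background in gated TAU (5.88 ± 0.21) and WT (5.48 ± 0.09), called in both comparisons (limma adjusted p = 0.000861 against TAU and 1.31e-05 against WT). The summed endothelial signal was 9.03 to 11.13 in gated APP, 8.65 to 9 in gated TAU and 8.44 to 9.34 in WT, and Pecam1 was called lower in gated APP than in WT between signals at background (limma adjusted p = 0.0247). The summed astrocyte signal was 9.32 to 10.36 in gated APP, 9.07 to 9.83 in gated TAU and 9.45 to 10.79 in WT. The part of all these markers in the Trem2 and Tyrobp values was not tested.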

How the data were processed

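Microglial total RNA (5 ng per sample, per the labels' protocols) was biotin-labelled with a 3′ kit and hybridised to mouse arrays. The authors deposited log2 signals per probe set, made with RMA in the Transcriptome Analysis Console per the submitters' processing notes. RMA includes a background step and quantile normalization, so that differences of weak signals come out too small. Versions, genome build and filters are not given in the sources used here. The values were used as deposited. Of 22203 probe sets, 19572 had 1 gene symbol, 2631 none and 0 several. The 23 arrays had medians of 6.87 to 7.13, and 0 columns were identical.

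A linear model with 1 mean for each of the 6 groups was fitted to all 23 samples with limma 3.58.1 under R 4.3.3, with 17 residual and 5.11 prior degrees of freedom and no intensity trend. Tests were two-sided, with Benjamini-Hochberg adjustment over all probe sets of a comparison and a threshold of 0.05. The fit was checked on simulated data. Single values used exact permutation over samples (Python 3.11.15, scipy 1.17.1). Where the lower group lay at background, folds were set against that level and written as at least. Probe levels of different genes were not compared.

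The 2 genes, the 9 pathway lists (98 other genes, 88 measured) and the 10 marker lists were chosen with earlier results of these data known. Clec7a stands in no list. Named genes were, per list and comparison, up to 5 called members with the largest log2 fold change, any ligand, sheddase, Trem family or adaptor gene, and the 8 probe sets most like Trem2 or Tyrobp. Syk, Lpl, Csf1r, Siglech, Clec5a, B2m, Fth1 and the marker genes named fall outside this rule and were chosen after their values were seen. Same-numbered samples of gated APP and gated TAU correlated in their deviations from the group means in 4 of 4 pairs (r = 0.182 to 0.424), the 1 of 15 pairs of groups where all were over 0.1. The labels give no shared animal, litter or day, so this pairing comes from the data. Correlations between samples of different number were not computed, so a pairing is not shown. Alternatives covered scaling, filtering, array weights, sample choice, a Y-linked covariate, the replicate number and each sample left out.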

Additional observations from a re-analysis of the deposited data

Results flagged for a closer look

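Trem2 in gated TAU replicate 1 was 15.77, while the other 3 samples of that group were between 15.58 and 15.60. Among the genes around it, the samples far from the rest of their group were as follows. In gated APP, Adam17 was 10.47 in replicate 3 (others 10.83 to 10.90), Psenen 13.93 in replicate 4 (14.16 to 14.20) and Itgax 12.58 in replicate 2 (11.59 to 11.71). In gated TAU replicate 4, H2-D1 was 13.12 (13.92 to 13.98) and Fth1 18.26 (18.48 to 18.51). In WT at 12 months replicate 3, Lgals3 was 7.06 (7.69 to 7.73), Aph1a 9.55 (9.01 to 9.09), Treml1 6.85 (7.30 to 7.38) and Cd200r4 5.42 (4.41 to 4.57). Cd300lb was 6.49 in young TAU replicate 4 (5.69 to 5.78). In young WT replicate 1, Apoe was 9.85 (11.53 to 11.83), Ncstn 11.07 (12.82 to 13.17) and Lgals3 7.28 (7.57 to 7.59), and in replicate 4 B2m was 17.28 (17.70 to 17.77). These were 15 of 270 tests of a gene in a group (5.56%), and chance gives about 1 in 20.

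Other results are listed because 2 groups differed by the test of the difference itself. Between gated APP and gated TAU these were, on the log2 scale, Trem1 (1.52), Hcst (0.95), Cd200r4 (2.15), Igf1 (3.67), Gpnmb (3.03), Ctsl (0.77) and Itgax (-1.15). Trem1 and Hcst were at background in gated TAU, so their differences are no measured sizes, and at least 1.81-fold holds for each. The change with age, gate included, exceeded that of WT by 1.99 in APP and 1.19 in TAU for Trem2, and by 1.52 in APP and 1.25 in TAU for Tyrobp. The TAU change runs to 9 months and the WT change to 12. The Trem2 value in TAU lost its call without any 1 of 9 samples.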

How the results depend on the processing

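Over 30 results on Trem2, Tyrobp and the pair, 462 of 498 recomputed values kept their direction and side of the threshold, 22 no longer passed, 1 newly passed and 13 changed sign, all of the last in results not called. Of the 22, 9 concern the unequal change between the gated lines (0.495), which had not passed the correction and whose smallest possible p was 0.0571 with a sample left out and 0.125 as pairs. The Trem2 difference between gated TAU and WT was 0.728 without WT 12 months replicates 2 and 4 (adjusted p = 0.128), and the TAU interaction for Trem2 was 1.01 there (adjusted p = 0.154) and 1.059 with the Y-linked covariate (adjusted p = 0.0873). The exact permutation test of Trem2 alone, chosen after seeing the data, passed for gated APP against gated TAU (0.717, p = 0.0286). Over the 8 gated samples, whose lines lie apart so that no relation is read from it, r was 0.759 (exact p = 0.037), 0.709 after quantile normalization (exact p = 0.066) and 0.53 without the 2 farthest samples (exact p = 0.31). Sign changes were a Tyrobp difference between young APP and young TAU of 0.03 with quantile normalization, 0.027 with array weights and 0.028 with the Y-linked covariate, Tyrobp differences of 0.157 and 0.129 for young APP and young TAU against WT with that covariate, and a Trem2 change with age in WT of 0.1 without WT 12 months replicates 2 and 4. With each sample left out in turn, Trem2 ranged from -0.272 to 0.055 for WT with age, -0.313 to 0.062 for young APP against young TAU and 1.039 to 1.382 for the TAU interaction. Tyrobp ranged from -0.006 to 0.224 and from -0.143 to 0.067 in the first pair of these, and the unequal change between the gated lines from 0.456 to 0.549. Gated APP against WT ranged from 1.508 to 1.768 for Trem2 and from 1.233 to 1.402 for Tyrobp, and Trem2 between the gated lines from 0.606 to 0.782 (lowest adjusted p = 0.158).

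Over all groups the replicate numbers were not taken as pairs (r of deviations from -0.521 to 0.552, median 0.101, over 0.1 in 28 of 55 pairs), except between gated APP and gated TAU. There a fit on these groups alone with the number as a block, chosen after seeing the data, called 175 in place of 206 probe sets. Calls were lost for Hcst and Ctsl, and for none of Trem1, Cd200r4, Igf1, Gpnmb and Itgax. With the replicate number as a block over all groups, Trem2 was at 1.62, 0.902 and 0.717 and Tyrobp at 1.305, 1.082 and 0.223 in gated APP against WT, gated TAU against WT and gated APP against gated TAU, with no call changed for either gene, and 6 in place of 3 signalling genes were called in gated APP.

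Fits on the compared groups alone called 1326 in place of 2015 probe sets for gated APP against WT, 1218 in place of 1946 for gated TAU against WT and 120 in place of 206 between them. Without WT 12 months replicates 2 and 4 the first pair were 1264 and 1227. List counts over all settings ran from 0 to 3 and 0 to 2 for the cleavage enzymes in APP and TAU, 2 to 6 and 3 to 7 for signalling, 2 to 4 and 1 to 2 for inhibitors, 1 to 3 for the Trem family and adaptors in TAU, and between the lines 0 to 1 for adaptors, 1 to 2 for receptors and 2 to 4 for DAM stage 2. Of 1278 recomputed values of other named genes, 1153 kept their call, 125 lost it and 0 changed sign. Signals at background bound the folds of Trem1, Hcst, Lgals3, Cd200r4, Axl, Itgax and Gpnmb.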
